A study of Mus musculus with 72 samples.

Results

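Heat shock chaperone genes were taken by symbol from the expression table, 8 of the 16835 genes it lists: HSPA1A, HSPA1B, HSPA8, HSPH1, DNAJB1, HSP90AA1, HSPD1 and HSPE1. All 8 symbols were found. The rule names symbols and no threshold, but the genes were chosen with earlier results of these data known. RNA came from BALB/c mice bearing CT26 tumors, a transplantable mouse colon carcinoma line, and was read as stranded polyadenylated libraries. Tumors, spleens and tumor-draining lymph nodes at day 23, and nodes at day 16, gave 18 libraries each, 72 in all. Each of these sets held 3 mice per arm, the arms being TS/PD1/CYTO, TS/CYTO, PD1/CYTO, PD1, CYTO and Isotype, the last being the control arm. p-values measure the spread between these mice. The labels do not spell out CYTO or TS, and give no ages. All arms carried CT26 tumors, so no tissue came from a mouse without a tumor, and every tumor derives from 1 cell line. At day 23, 18 mice gave a spleen and a node each, and 14 of these a tumor as well. The 4 fresh-frozen tumors came from mice with no other tissue here, and other mice gave the day 16 nodes.

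Heat shock chaperones bind unfolded proteins and help them fold, hold them soluble or pass them on for degradation. When unfolded proteins accumulate, heat shock factor HSF1 forms trimers, binds heat shock elements in the promoters of inducible chaperone genes and raises their transcription. HSPA1A and HSPA1B encode the stress-inducible HSP70 proteins, while HSPA8 encodes HSC70, the HSP70 present in unstressed cells. DNAJB1 is a J-domain protein that stimulates the ATPase of HSP70, and HSPH1 is an HSP110 that exchanges its nucleotide. HSP90AA1 is the inducible cytosolic HSP90, which matures kinases and steroid receptors. HSPD1 and HSPE1 are the HSP60 and HSP10 of the mitochondrial chaperonin, one forming the chamber and the other its lid. Dissection, warming and delay of a tissue can also start a heat shock response.

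The positions of the genes matter for reading their values. On GRCm38, HSPD1 lies on chromosome 1 from 55077835 to 55088243 on the minus strand, and HSPE1 lies beside it from 55088132 to 55091307 on the plus strand, so that the annotated genes point away from each other and overlap by 112 bases. The libraries were stranded, but whether strand was used in counting is not given in the sources used here. HSPA1A (chromosome 17, 34969190 to 34972156) and HSPA1B (chromosome 17, 34956436 to 34959238) are near-identical genes on the minus strand. HSPH1 lies on chromosome 5 (149614287 to 149636376, minus strand), DNAJB1 on chromosome 8 (83608193 to 83612653, plus strand), HSPA8 on chromosome 9 (40800984 to 40810087, plus strand) and HSP90AA1 on chromosome 12 (110690605 to 110702728, minus strand). Of all 50-base windows in the longest transcript, 58.8% of those of HSPA1A are also found in HSPA1B, and 62.3% of those of HSPA1B in HSPA1A. HSPA8 shared 51.4% of its windows, HSP90AA1 58.5% and HSPD1 44.8% with other annotated genes, most of them with a single one each (GM15459, GM12346 and HSPD1-PS3), against 8.20% for HSPE1, 0.407% for DNAJB1 and 0 for HSPH1. How reads were split among such copies is not known, so the division between HSPA1A and HSPA1B is uncertain. The levels of HSPA8, HSP90AA1 and HSPD1 carry the same kind of doubt.

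RefSeq promoter windows of GRCm38.p6, from 250 bases before to 50 after a start, were at hand for 6 of the 8 genes (9 windows; none for HSPA8 and HSP90AA1). They were searched for the core of the heat shock element, inverted GAA units, as GAANNTTC or TTCNNGAA. Each is its own reverse complement, so both strands are covered. A 3-unit match is a 2-unit match that goes on, after NN, with the next inverted unit, and so holds a pair of overlapping 2-unit matches. Of 32851 mouse windows, 15.1% held a 2-unit match and 0.603% a 3-unit match. The stretches below are the 250 bases before the start, shown because the first lies just before HSPE1 and within the annotated 5′ end of HSPD1, whose values are compared further on, and because the others show how alike the inducible HSP70 genes are upstream. Capitals mark 2-unit matches, which overlap in the first.
HSPE1 (chr1:55087898-55088147, plus strand): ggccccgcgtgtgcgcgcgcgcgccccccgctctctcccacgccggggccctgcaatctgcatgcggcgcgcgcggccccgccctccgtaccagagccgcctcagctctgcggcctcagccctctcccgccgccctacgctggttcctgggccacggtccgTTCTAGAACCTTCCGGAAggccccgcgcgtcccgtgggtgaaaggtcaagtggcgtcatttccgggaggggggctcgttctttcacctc
HSPA1A (chr17:34972157-34972406, minus strand): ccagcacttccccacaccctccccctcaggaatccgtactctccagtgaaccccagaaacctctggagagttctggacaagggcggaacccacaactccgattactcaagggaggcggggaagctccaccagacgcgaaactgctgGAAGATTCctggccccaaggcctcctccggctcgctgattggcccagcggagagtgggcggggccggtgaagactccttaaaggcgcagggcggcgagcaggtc
HSPA1B (chr17:34959239-34959488, minus strand): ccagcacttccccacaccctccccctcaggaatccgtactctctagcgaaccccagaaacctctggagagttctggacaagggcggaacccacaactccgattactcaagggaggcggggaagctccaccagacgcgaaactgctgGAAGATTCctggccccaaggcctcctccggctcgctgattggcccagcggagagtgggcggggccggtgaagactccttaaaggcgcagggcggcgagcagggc
The HSPE1 window held 3 overlapping 2-unit matches that start 89, 84 and 79 bases before the start and form both kinds of 3-unit match. It shares 285 bases with 1 HSPD1 window, which therefore holds the same matches, while the other HSPD1 window, whose start lies farther upstream on the minus strand, held none. HSPA1A and HSPA1B each held 1 match, 104 bases before the start, and were identical at 247 of 250 bases (98.8%). Both HSPH1 windows held 3 matches with 1 of them before the start, and a 3-unit match after it. Neither DNAJB1 window held one. These matches are letters in a window and were not tested as binding sites.

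Depth is unknown, because the values are log2(TPM + 1) and keep no read numbers. The lowest value in the table, 0.01, is 0.00696 TPM if the offset is exactly 1, and may stand for 0. Tumors had RNA integrity numbers of 4.5 to 7.8 and spleens of 6 to 9. Nodes had 4.5 to 7.9 at day 23 and 5.1 to 8.3 at day 16, where 1 library lacks a number. Batch 2 holds all nodes and the 4 fresh-frozen tumors, batch 3 the 14 tumors kept in RNAlater, and batch 4 all spleens. All nodes and spleens were kept in RNAlater. The tumors held 0.0417 to 3.23 TPM summed over 6 B cell markers, 4 of which were at the lowest value in all 18, against 1118 to 2247 TPM in day 23 nodes. Of 10 tumor and stroma markers, EPCAM and CDH1, which mark epithelium, were at the lowest value in all 18 tumors. The library labelled as the day 16 node of PD1/CYTO mouse 22 goes against its label: its profile correlated with tumors at r = 0.964 and with nodes at 0.790, and it held 10095 TPM of tumor and stroma markers (9578 to 16395 in tumors) and 3.16 TPM of B cell markers. The day 16 node of TS/PD1/CYTO mouse 34 held 15285 TPM of skeletal muscle and 17782 TPM of fat markers. Results on day 16 nodes were therefore also computed without both, below called the nodes that stand apart. Fat markers alone do not set mouse 34 apart, as they reached 27128 TPM in another day 16 node. The day 16 node of PD1 mouse 16 also correlated weakly with its own set (mean r = 0.820). Mice 34 and 22 had 0.765 and 0.787, and the other day 16 nodes at least 0.936. The node of PD1 mouse 16 was kept in all these results.

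Tumors had more RNA of all 8 chaperone genes than the day 23 nodes, and more than the spleens. Against nodes, HSPA1B (4.72-fold), HSPE1 (3.19-fold) and HSPD1 (2.61-fold) differed most, and HSPH1 (1.25-fold) and HSPA8 (1.27-fold) least. All folds are on the TPM + 1 scale and understate the change of low genes. In bulk tissue, fewer cells of a type and less RNA per cell cannot be told apart, and tissue and batch cannot be told apart outside batch 2. Within batch 2, tissue and storage cannot be told apart.

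**Figure D1:**
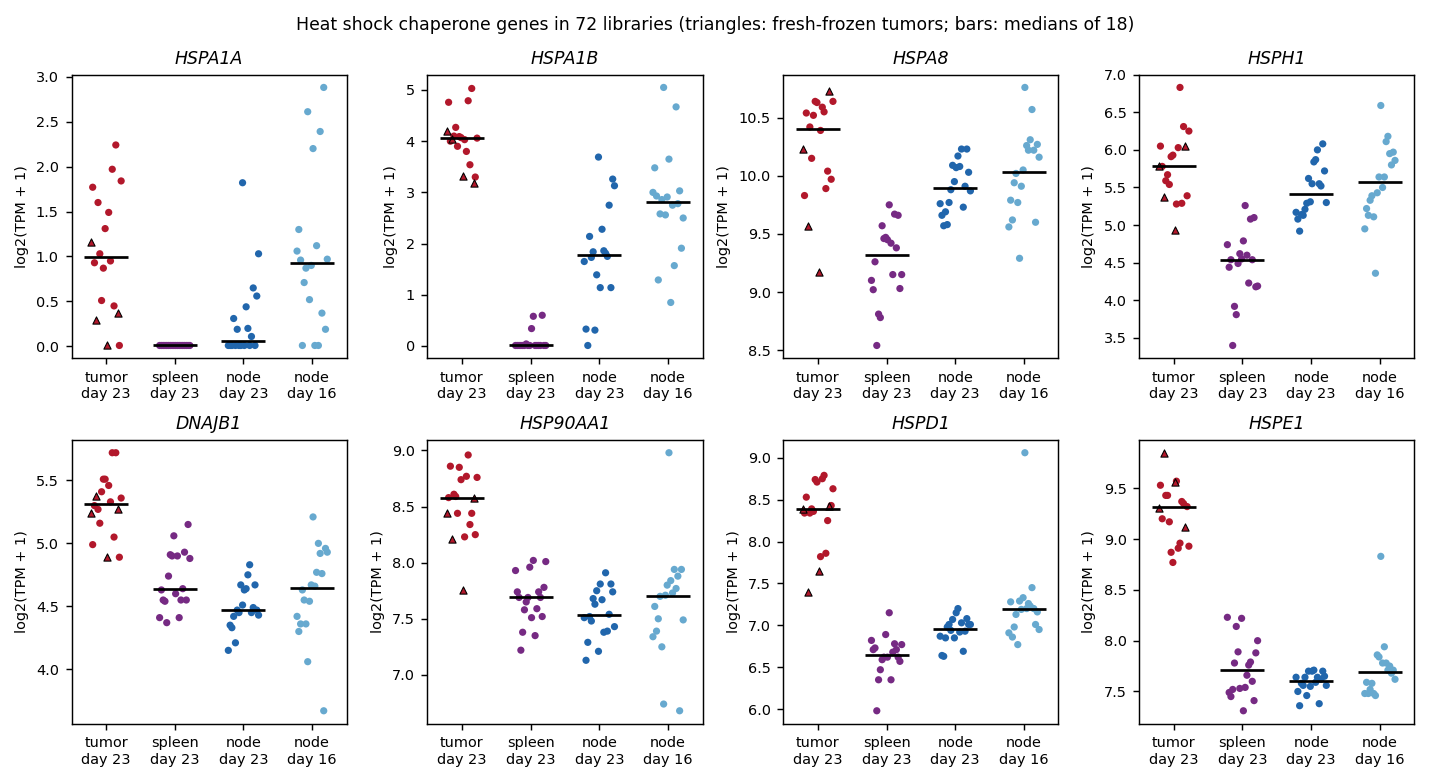
Level of each gene, as log2(TPM + 1) on the vertical axis, in tumors, spleens and nodes of day 23 and nodes of day 16; points are libraries (triangles: fresh-frozen tumors) and bars medians of 18. HSPD1 and HSPE1 in tumors lie above every day 23 node and every spleen, HSPA1A is at the lowest value in every spleen, and a single day 16 node stands at 9.06 for HSPD1.

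Among the inducible HSP70 genes, HSPA1B ranged from 3.18 to 5.03 in tumors with a median of 4.06, against 0.01 to 0.60 with a median of 0.01 in spleens and 0.01 to 3.69 with a median of 1.78 in day 23 nodes. Tumors and spleens did not overlap, while the highest nodes reached into the range of the tumors. HSPA1B was at the lowest value in 14 of 18 spleens, and its tumor minus node difference was 2.24 ± 0.20 (SE; limma adjusted p = 2.72e-13). HSPA1A was low throughout, at 0.01 to 2.24 with a median of 0.99 in tumors and 0.01 to 1.82 with a median of 0.06 in day 23 nodes, and was listed at the lowest value in all 18 spleens, so that no fold is given against them. Its tumor minus node difference was 0.74 ± 0.16 (limma adjusted p = 6.99e-05).

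HSPA8, the constitutive HSP70, had the highest median of the 8 genes in every tissue. It ranged from 9.17 to 10.73 with a median of 10.41 in tumors (1355 TPM), against 8.54 to 9.75 with a median of 9.32 in spleens (639 TPM) and 9.57 to 10.23 with a median of 9.90 in day 23 nodes (951 TPM). These ranges overlap, and the difference was 0.35 ± 0.10 to nodes (limma adjusted p = 0.00111) and 0.99 ± 0.10 to spleens (adjusted p = 2.05e-12). HSPH1, its nucleotide exchange factor, ranged from 4.93 to 6.83 (median 5.79) in tumors, against 3.40 to 5.26 (median 4.54) in spleens and 4.92 to 6.08 (median 5.42) in day 23 nodes. Nearly the whole range of the nodes lay within that of the tumors. DNAJB1, the J-domain partner, ranged from 4.89 to 5.72 (median 5.32) in tumors, 4.37 to 5.15 (median 4.64) in spleens and 4.15 to 4.83 (median 4.47) in day 23 nodes. For DNAJB1 tumors and day 23 nodes did not overlap, and the difference was 0.81 ± 0.07 (limma adjusted p = 4.93e-14).

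HSP90AA1 ranged from 7.76 to 8.96 (median 8.58) in tumors, 7.22 to 8.02 (median 7.69) in spleens and 7.13 to 7.91 (median 7.53) in day 23 nodes. Only the lowest tumor, the fresh-frozen one of PD1/CYTO mouse 32, fell among the spleens and nodes. The mitochondrial pair separated the tissues fully. HSPD1 ranged from 7.40 to 8.79 (median 8.39) in tumors, against 5.98 to 7.15 (median 6.65) in spleens and 6.63 to 7.20 (median 6.96) in day 23 nodes. HSPE1 ranged from 8.77 to 9.85 (median 9.32) in tumors, against 7.31 to 8.23 (median 7.71) in spleens and 7.36 to 7.71 (median 7.61) in day 23 nodes. For both, every tumor was above every spleen and every day 23 node. The tumor minus node difference was 1.39 ± 0.09 for HSPD1 (limma adjusted p = 4.47e-18) and 1.67 ± 0.08 for HSPE1 (adjusted p = 6.38e-23). HSPE1 also varied least among the day 23 nodes, over 0.35 log2 units, and the split among the 4 kinds of tissue held 88.0% of its variance over the 72 libraries, against 37.3% for HSPA1A.

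Tissues differ in most genes, so these counts are read against the background. Between tumors and nodes 27.7% of 12761 genes were higher and 57.9% lower in tumors, the median gene differing by -0.43, and the 8 members, all higher, had a median of 0.89. Between tumors and spleens 53.3% were higher and 24.8% lower in tumors, with a median of 0.32 over all genes and 1.17 over the members. Every tumor was above every day 23 node for 3 of 8 members (DNAJB1, HSPD1 and HSPE1), as for 10.8% of all 12761 genes, and above every spleen for 3 of 8 (HSPA1B, HSPD1 and HSPE1), as for 19.1%. Within batch 2, 4 fresh-frozen tumors met nodes of the same arms, with 1 tumor per arm. Those nodes were kept in RNAlater, so tissue and storage cannot be told apart there. The spread in that fit comes from the nodes alone, so only the sizes of the differences are given. Tumor minus node was 1.98 for HSPA1B, 1.86 for HSPE1, 1.02 for HSPD1, 0.74 for DNAJB1 and 0.71 for HSP90AA1. It was 0.23 for HSPA1A, 0.12 for HSPH1 and 0.05 for HSPA8. With quantile normalization, which moved the median over all genes to -0.01, the HSPA8 difference between tumors and nodes was 0.03 (limma adjusted p = 0.805). Between tumors and spleens, HSPH1 was 1.31 ± 0.11, HSP90AA1 0.85 ± 0.08, HSPD1 1.69 ± 0.09, HSPE1 1.53 ± 0.08 and DNAJB1 0.60 ± 0.07 higher in tumors (limma adjusted p of at most 2.65e-10). With the listed TPM of every library rescaled to the same sum, DNAJB1 turned to -0.10 (adjusted p = 0.28) and HSP90AA1 came to 0.14 (adjusted p = 0.154) against spleens. HSPA1B was 3.93 ± 0.20 above spleens, and 6.77 with a pseudocount of 0.1 in place of 1, since most spleens were at the lowest value.

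The same contrast was described for related genes listed beside the members. Its counts are to be read beside all 12761 genes, of which 27.7% were higher and 57.9% lower in tumors, with a median of -0.43. Of 14 subunits of the TRiC chaperonin and prefoldin, which fold actin and tubulin, 13 were higher in tumors than in day 23 nodes and 0 lower, with a list median of 0.86. PFDN1, a prefoldin subunit, was 2.21 ± 0.06 higher (limma adjusted p = 4.82e-31) and CCT6A, a TRiC subunit, 1.26 ± 0.06 higher (adjusted p = 1.41e-23). Of 34 other cytosolic chaperones and co-chaperones, 18 were higher and 13 lower, with HSPB8, a small heat shock protein, 3.96 ± 0.18 higher and DNAJA4, a J-domain protein, lower (-2.77 ± 0.07). Of 14 mitochondrial chaperones and proteases, 7 were higher and 6 lower, and HSPA9, the mitochondrial HSP70, was 1.70 ± 0.08 higher. Of 16 endoplasmic reticulum chaperones, 3 were higher and 8 lower, among the lower ones SDF2L1 (-1.23 ± 0.10). Of 4 heat shock factors and partners tested, 2 were higher and 1 lower. HSF4, a heat shock factor, was 2.30 ± 0.12 higher, HSBP1, which binds HSF1, 0.63 ± 0.07 higher, and HSF1 itself lower (-0.26 ± 0.12; limma adjusted p = 0.0432). Against spleens, HSF1 was instead 1.35 ± 0.12 higher in tumors (limma adjusted p = 2.73e-13). HSF4 (3.20 ± 0.12), HSF2 (1.74 ± 0.08) and HSBP1 (1.28 ± 0.07) were higher there too, where 53.3% of all genes were. Of 12 immediate early genes, which respond to tissue handling within minutes as well as to signals, 6 were higher and 5 lower in tumors than in day 23 nodes. JUN (1.94 ± 0.13), ATF3 (2.18 ± 0.17) and FOSB (1.40 ± 0.10) were among the higher ones. The part of handling in the chaperone levels was not tested.

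Spleens and day 23 nodes came from the same mice. On the deposited scale HSPA1B (-1.70 ± 0.20), HSPH1 (-0.99 ± 0.11), HSPA8 (-0.64 ± 0.10) and HSPD1 (-0.30 ± 0.09) were lower in spleens than in nodes and DNAJB1 higher (0.21 ± 0.07), by limma with adjusted p of at most 0.00479. This has to be read beside a median difference of -0.92 over all genes, with 79.7% of genes lower and 9.10% higher in spleens. Genes outside the table took 40.4% to 59.1% of the TPM in spleens, against 17.1% to 22.2% in day 23 nodes. With rescaled TPM, HSPD1 turned to 0.36 and HSPA8 to 0.03, and under quantile normalization HSPD1 turned to 0.26. HSPA1B was lower under both (-1.59 and -0.99), and HSP90AA1 (0.79 and 0.63) and HSPE1 (0.82 and 0.65) passed as higher in spleens. Of 12761 genes, 2807 passed as higher and 7629 as lower with rescaled TPM, and 4330 and 5843 under quantile normalization. On the deposited scale 1161 passed as higher and 10165 as lower. With the mouse as a block, HSPA1A passed as well (limma adjusted p = 0.0499). It was at the lowest value in all 18 spleens and in 9 of 18 day 23 nodes, so no conclusion is drawn from that call.

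No gene of 12596 passed between day 23 and day 16 nodes (limma; 0% called; 2227 genes at an unadjusted p under 0.05), and so no member did. HSPA1B ranged from 0.01 to 3.69 (median 1.78) in day 23 nodes and from 0.85 to 5.05 (median 2.82) in day 16 nodes. HSPA1A was at the lowest value in 9 of 18 day 23 nodes and in 3 of 18 day 16 nodes. All 8 members had a lower mean at day 23, and the differences of HSPA1B (-1.01 ± 0.34; limma adjusted p = 0.192) and HSPA1A (-0.76 ± 0.26; adjusted p = 0.192) lay in the lowest 0.722% and 1.87% of all genes. Those of the other 6 ran from -0.30 for HSPD1 to -0.08 for HSP90AA1. The node labelled PD1/CYTO mouse 22, with the tumor-like profile, held the highest node values of HSPD1 (9.06), HSPE1 (8.83), HSP90AA1 (8.98), HSPH1 (6.59), DNAJB1 (5.21) and HSPA8 (10.76). The node with the highest HSPA1B, 5.05, was that of PD1 mouse 16, which had the lowest integrity number of the day 16 nodes, 5.1. Without both nodes that stand apart, 0 members passed as well.

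In spleens, HSPH1 and HSPA8 were lower in the Isotype mice than in any other mouse. In the PD1/CYTO spleens HSPH1 had 4.79, 5.26 and 4.60, in the PD1 spleens 4.49, 4.62 and 4.55, in the CYTO spleens 4.74, 4.44 and 4.54, in the TS/CYTO spleens 4.23, 5.08 and 4.54 and in the TS/PD1/CYTO spleens 5.10, 4.18 and 4.19, against 3.40, 3.92 and 3.81 in the Isotype spleens. HSPA8 had 9.45, 9.75 and 9.42 in the PD1/CYTO spleens, 9.57, 9.46 and 9.47 in the PD1 spleens, 9.10, 9.02 and 9.26 in the CYTO spleens, 9.15, 9.67 and 9.38 in the TS/CYTO spleens and 9.66, 9.03 and 9.15 in the TS/PD1/CYTO spleens, against 8.54, 8.81 and 8.78 in the Isotype spleens. For both genes all 15 spleens of the other arms were above all 3 Isotype spleens, as for 3.23% of 11184 genes. The test passed in 1 arm: PD1/CYTO minus Isotype was 1.17 ± 0.26 for HSPH1 and 0.83 ± 0.17 for HSPA8 (limma adjusted p = 0.0469 for both).

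**Figure D2:**
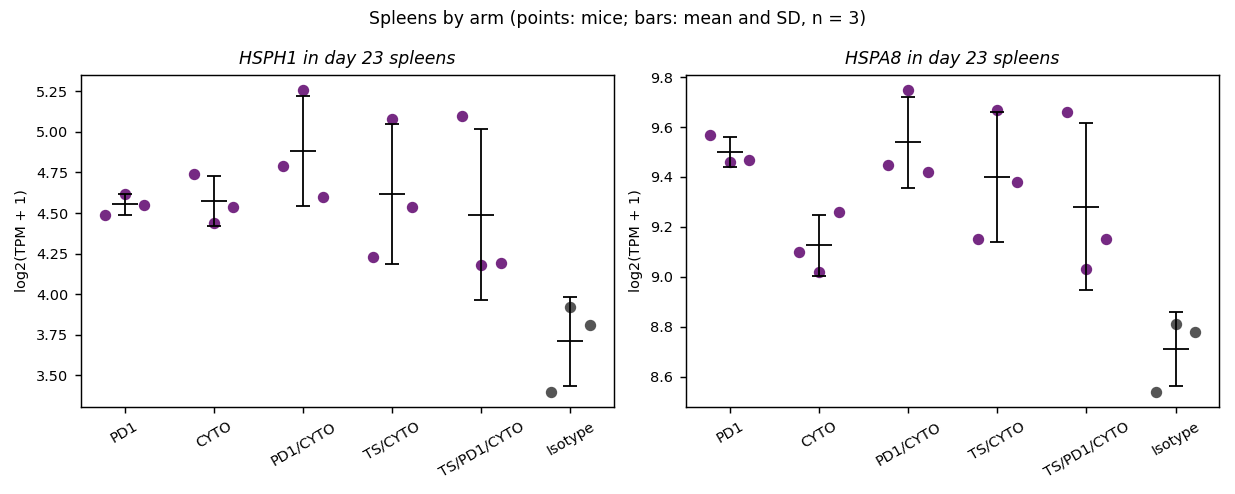
HSPH1 and HSPA8 in day 23 spleens by arm, as log2(TPM + 1); points are mice and bars the mean and SD of 3. The 3 Isotype spleens, at 3.40 to 3.92 for HSPH1 and 8.54 to 8.81 for HSPA8, lie under the 15 spleens of the other arms.

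That comparison moved the whole transcriptome: 25.4% of 11184 genes were higher in PD1/CYTO spleens, with a median difference of 0.54 over all genes, and HSPH1 and HSPA8 stood at the percentiles 91.8 and 72.2 of all genes. The other 5 members tested had differences from -0.31 (HSPE1) to 0.44 (HSPD1) and did not pass. Of the related lists, 14 of 34 cytosolic chaperones rose, among them CHORDC1, an HSP90 co-chaperone (1.01 ± 0.19), and STIP1, which joins HSP70 to HSP90 (0.54 ± 0.13), and 11 of 16 endoplasmic reticulum chaperones rose, among them HYOU1 (1.35 ± 0.33) and HSPA5, the HSP70 of that compartment (0.92 ± 0.22), each with limma adjusted p = 0.0469. The list medians were 0.52 and 0.755, beside 0.54 over all genes. Of the 14 TRiC and prefoldin subunits only CCT2 rose (0.41 ± 0.13). Of the 14 mitochondrial chaperones and proteases only CLPB, HSPA9 and SPG7 rose, and of the heat shock factors and partners HSF1 and HSF2. Of 11 immediate early genes 4 rose, with EGR1 at 1.70 ± 0.51. A measure of transcript length also differed between these spleens. The length index of a library is the median deviation of genes with transcripts under 1000 bases minus that of genes over 5000 bases, members left out. It was -0.41, -0.65 and 0.09 in PD1/CYTO spleens, against 0.50, 0.34 and 0.46 in Isotype spleens. Over the 18 spleens, with arm means subtracted, it correlated with HSPA8 at r = -0.50 (rho = -0.57; permutation adjusted p = 0.109) and with HSPH1 at -0.39 (rho = -0.43; adjusted p = 0.225). Its part in the result was not tested. The call was lost for both genes under quantile normalization (adjusted p = 0.123), with rescaled TPM (0.0678), with RNA integrity (0.088) or tumor volume (0.207) as a covariate, and without any 1 of 11 spleens. Those were the spleens of Isotype mouse 8 or 10, CYTO 19, PD1 28 or 29, PD1/CYTO 38 or 39, TS/CYTO 48, 49 or 50 and TS/PD1/CYTO 60, with adjusted p from 0.0509 to 0.15. Without the spleen of PD1/CYTO mouse 40, 4 members passed, where 31.7% of 11171 genes did. Against Isotype, the HSPH1 difference was 0.84 for PD1, 0.86 for CYTO, 0.91 for TS/CYTO and 0.78 for TS/PD1/CYTO, and that of HSPA8 0.79, 0.42, 0.69 and 0.57 in the same order, with limma adjusted p from 0.314 to 0.533. The 5 comparisons share the same 3 Isotype spleens.

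Elsewhere no member passed for any treatment. The 20 comparisons of an arm with Isotype held no other call of a member, and neither did the 12 average effects of PD1, CYTO and TS within a tissue and day. The background was 0% in all tumor and day 16 node comparisons, and in the PD1, CYTO and TS/CYTO spleens; it was 0.00894% for TS/PD1/CYTO spleens. In day 23 nodes it was 0.0492% for PD1 minus Isotype, 0.00819% each for PD1/CYTO and TS/PD1/CYTO minus Isotype, 0% for the other arms, and 0.0164%, 0.0656% and 0.00819% for the PD1, CYTO and TS effects. In those nodes the PD1 effect was above 0 for all 8 members, from 0.08 for HSPE1 to 0.47 ± 0.43 for HSPA1B, with the smallest p for HSPA8 (0.27 ± 0.07; limma adjusted p = 0.129) and HSPH1 (0.32 ± 0.10; adjusted p = 0.155), against a median of -0.06 over all genes. The difference of a treatment effect between tissues or days was tested in 9 contrasts. No member passed, with a background of 0.0470% (PD1) and 0.165% (CYTO) and 0.0157% (TS) for tumor minus node, 0.204%, 0.188% and 0.0470% for spleen minus node in the same order, and 0.0556%, 0% and 0% for day 23 minus day 16 nodes.

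RNA integrity and storage were examined as the labels give both. The slope per unit of RNA integrity number passed for no gene in any of the 4 kinds of tissue (0% called in each, with limma; 1232 to 2992 genes at an unadjusted p under 0.05). The steepest member was DNAJB1 in spleens, with a slope of 0.22 ± 0.06 log2 units per unit (adjusted p = 0.0984). DNAJB1 was 4.37 in the spleen with the lowest number (6), 5.06 and 4.88 in the pair with the highest (9), and highest, at 5.15, in a spleen with 8.8. Without arm as a term the slope was 0.22 ± 0.04 and passed (limma adjusted p = 0.00695). In that fit 6.09% of 11184 genes passed, 6.01% with a slope above 0. Arm and integrity went together, as the Isotype spleens had numbers of 6 to 7.5 and the PD1 spleens 8.4 to 9. In tumors the slopes ran from -0.09 for HSPE1 to 0.16 for HSPA8, and none passed.

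**Figure D3:**
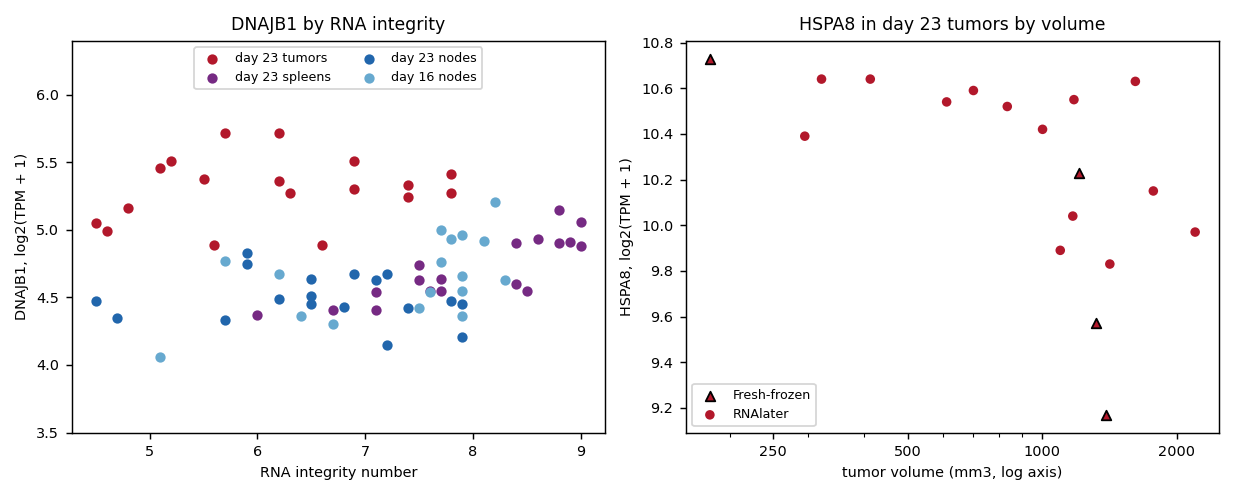
Left, DNAJB1 as log2(TPM + 1) against RNA integrity number in the 4 kinds of tissue; right, HSPA8 in the 18 day 23 tumors against tumor volume on a log axis (triangles: fresh-frozen). For DNAJB1 the spleen with a number of 6 is the lowest spleen, at 4.37, and HSPA8 is highest, at 10.73, in the smallest tumor.

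The 4 fresh-frozen tumors had lower means than the 14 RNAlater tumors for 7 of 8 members, and HSPE1 was the exception. Most genes were lower there: with arm as a term, only 13.2% of 10913 genes had a difference above 0. HSPD1 was 7.40 to 8.42 in fresh-frozen tumors (median 8.02), against 7.82 to 8.79 in RNAlater tumors (median 8.41), and HSPE1 9.12 to 9.85 (median 9.44), against 8.77 to 9.57 (median 9.26) in RNAlater tumors, with overlap in both. With arm as a term, fresh-frozen minus RNAlater was -0.44 ± 0.20 for HSPD1 (limma adjusted p = 0.114) and 0.17 ± 0.15 for HSPE1 (adjusted p = 0.375), and -0.75 ± 0.37 for HSPA1A (adjusted p = 0.141). None passed, in a comparison where 15.0% of 10913 genes did and the median over all genes was -0.40. With RNA integrity as a covariate HSPD1 passed, at -0.50 ± 0.18 (limma adjusted p = 0.0447), the only member to do so. In that fit 37.5% of 10913 genes passed, 36.1% as lower and 1.45% as higher in fresh-frozen tumors. Storage and batch are the same split of the tumors and cannot be told apart.

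HSPA8 fell by 0.26 ± 0.07 log2 units per doubling of tumor volume in the 18 tumors (limma adjusted p = 0.0247), as 10.7% of genes did (1166 of 10913). It was 10.73 in the smallest tumor (181 mm3), 9.97 in the largest (2198 mm3) and lowest, at 9.17, in one of 1390 mm3. Its partner DNAJA1, a J-domain protein, fell by 0.30 ± 0.08, and TCP1, a TRiC subunit, by 0.20 ± 0.06, both of them members of the related lists. The other 7 members did not pass. The HSPA8 call was lost without a batch term (-0.25; adjusted p = 0.083), in the RNAlater tumors of batch 3 alone (-0.19; adjusted p = 0.112), with arm as a term (-0.27; 0.0812), and without the tumor of TS/PD1/CYTO mouse 52 (-0.20; 0.149), 59 (-0.26; 0.0604) or 60 (-0.27; 0.0588), and without that of PD1/CYTO mouse 38 the count of members was 3, where 42.6% of 10864 genes passed. No member passed against volume in spleens, where 39.7% of genes did, or in nodes of either day, where 0% did. In spleens the HSPA8 slope was -0.09 ± 0.05 (limma adjusted p = 0.104).

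Which genes moved together from mouse to mouse was asked after arm means (and batch in tumors) were subtracted. Pearson's r was computed for 105 pairs and tissues, each with a permutation test of 100000 resamples within arms and adjustment over all 105. In day 23 nodes 7 of 28 pairs passed, in day 16 nodes 9 of 28, in spleens 2 of 21 and in tumors 7 of 28. HSPA1A and HSPA1B went together in tumors (r = 0.86, rho = 0.83; permutation p = 0.00389, adjusted p = 0.0255), in day 23 nodes (r = 0.86, rho = 0.81; adjusted p = 0.0181) and in day 16 nodes (r = 0.91, rho = 0.93; adjusted p = 0.00472). How reads are divided between these near-identical copies is not known. HSPH1 and HSPA8 went together in spleens (r = 0.93, rho = 0.91; permutation adjusted p = 0.0213), day 23 nodes (r = 0.86, rho = 0.85; adjusted p = 0.00892) and day 16 nodes (r = 0.85, rho = 0.89; adjusted p = 0.00472). HSP90AA1 and HSPD1 did so in tumors (r = 0.82), spleens (r = 0.89) and day 23 nodes (r = 0.81), with permutation adjusted p of 0.0213, 0.00756 and 0.0181; in tumors r was -0.40 with the length index as a covariate (permutation adjusted p = 0.43). In tumors only 1 pair, HSPA8 and HSP90AA1 (r = 0.83), still passed without the 2 libraries farthest from the median of the first gene (r = 0.72; permutation adjusted p = 0.0136), and its r was 0.51 with the length index as a covariate (adjusted p = 0.323).

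**Figure D4:**
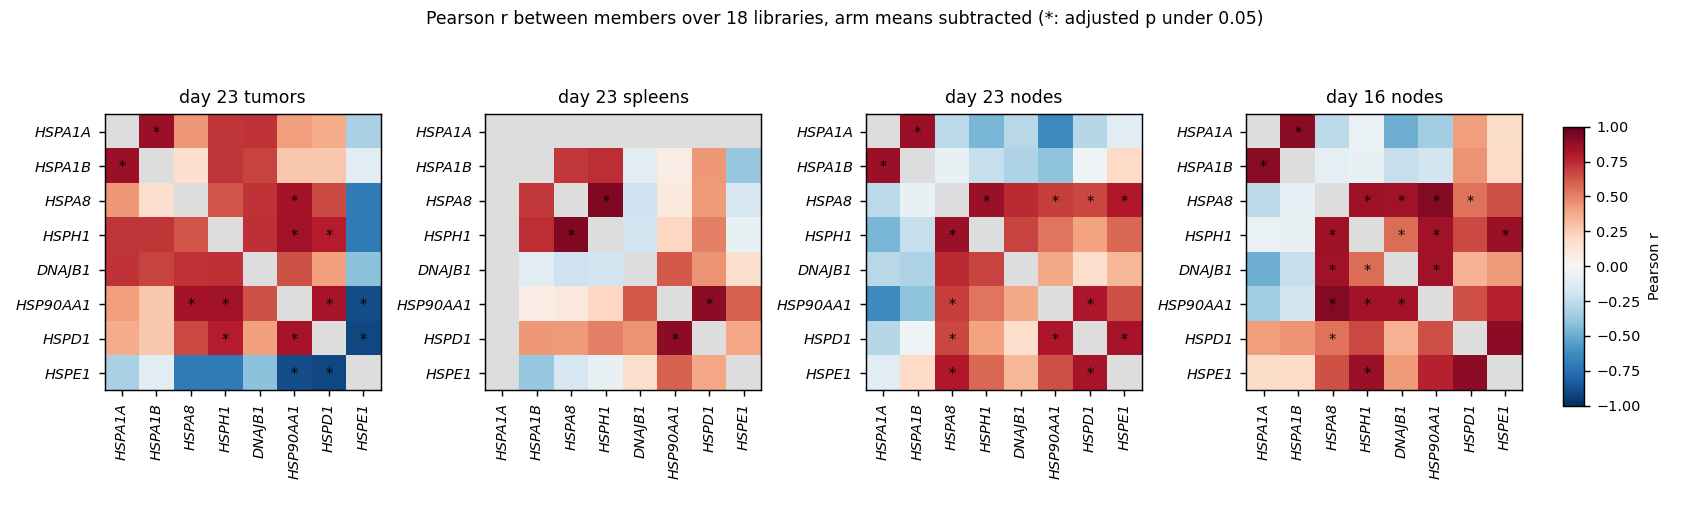
Pearson r between members over 18 libraries of each kind of tissue, arm means (and batch in tumors) subtracted; red is positive, blue negative, grey not computed, and asterisks mark adjusted permutation p under 0.05. The row of HSPE1 is negative in tumors and mostly positive in nodes.

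HSPD1 and HSPE1, whose starts lie at the stretch printed above, moved together in one tissue and apart in another. Their deviations rose and fell together in day 23 nodes (r = 0.82, rho = 0.84; permutation p = 0.00305, adjusted p = 0.0213) and ran opposite in tumors (r = -0.91, rho = -0.86; permutation p = 0.00018, adjusted p = 0.00525). In spleens r was 0.39 (rho = 0.43; permutation adjusted p = 0.192), and in day 16 nodes 0.89 (rho = 0.68; adjusted p = 0.0984), where without both nodes that stand apart it was 0.24 (adjusted p = 0.317). The tumors show it in their values: HSPD1 was 8.79, 8.75 and 8.74 in the tumors of TS/CYTO mouse 48, PD1/CYTO mouse 39 and PD1 mouse 29, where HSPE1 was 8.96, 8.91 and 8.87. HSPD1 was 7.40, 7.65 and 7.82 in those of Isotype mouse 1, PD1/CYTO mouse 32 and PD1/CYTO mouse 38, where HSPE1 was 9.85, 9.56 and 9.57. The tumors with the most HSPD1 thus had little HSPE1, and the other way round. The relation held in the 14 RNAlater tumors of batch 3 (r = -0.90; permutation adjusted p = 0.0391) and was -0.82 without the 2 libraries farthest from the median of HSPD1 (adjusted p = 0.0517).

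**Figure D5:**
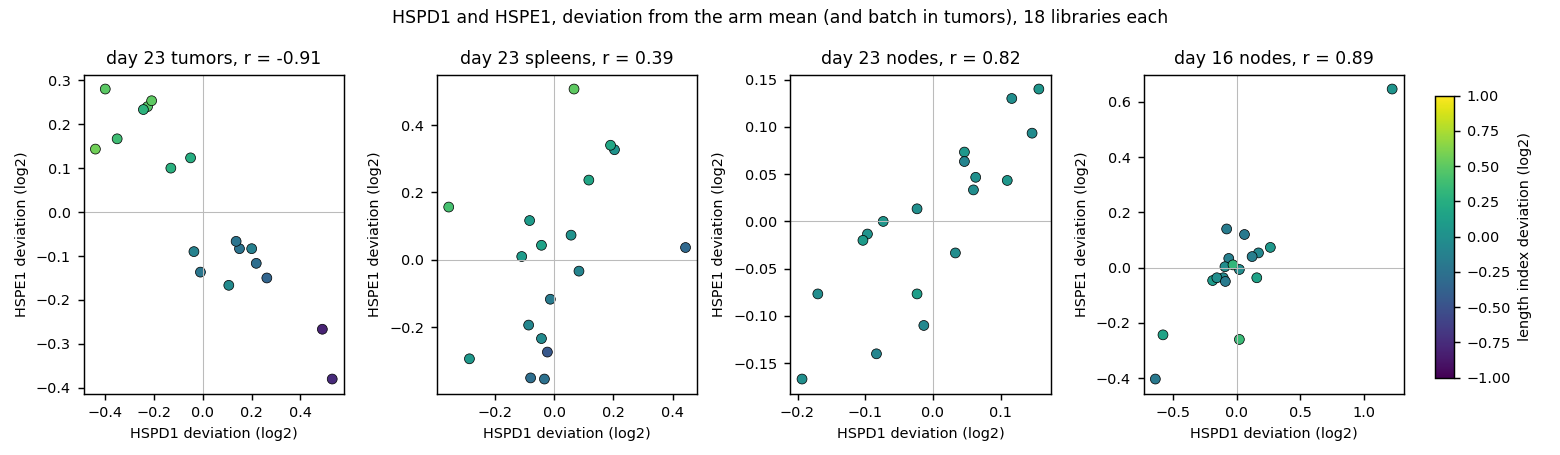
HSPE1 against HSPD1 in each kind of tissue, both as deviations in log2 units from the arm mean (and batch in tumors); points are 18 libraries, coloured by the deviation of their length index. The tumors fall along a descending line (r = -0.91) ordered by the length index, and the day 23 nodes along a rising one (r = 0.82).

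The 2 transcripts differ in length, 964 bases for HSPE1 and 2423 for HSPD1, and a measure of length was set beside the relation. The part of length in the relation was not tested. The length index spanned -0.85 to 1.12 in tumors and -0.65 to 0.50 in spleens, and in nodes -0.21 to 0.16 at day 23 and -0.22 to 0.55 at day 16. In tumors it correlated with HSPE1 at r = 0.95 (permutation adjusted p = 0.00403), with HSPD1 at -0.96 (adjusted p = 0.00403), HSP90AA1 at -0.91 (adjusted p = 0.00798), HSPH1 at -0.80 (adjusted p = 0.0248) and HSPA8 at -0.76 (adjusted p = 0.0357). The index did not pass in tumors with DNAJB1 (r = -0.51, permutation adjusted p = 0.289), HSPA1A (-0.39, 0.383) or HSPA1B (-0.24, 0.709). Their transcripts, of 2996, 2967 and 2803 bases, are longer than that of HSPD1. In spleens the index correlated with HSPE1 at 0.74, and in day 23 and day 16 nodes with HSPA1A at 0.78 and 0.85 and with HSPA1B at 0.81 and 0.77. With the length index as a covariate, chosen after seeing the data, r between HSPD1 and HSPE1 was -0.03 in tumors (permutation adjusted p = 0.932), 0.87 in spleens (0.0188), 0.84 in day 23 nodes (0.0238) and 0.92 in day 16 nodes (0.156). The index correlated with RNA integrity at r = -0.58 in tumors (rho = -0.63; permutation p = 0.029, adjusted p = 0.116) and at -0.41, -0.14 and -0.61 in spleens, day 23 nodes and day 16 nodes. For HSPA1A and HSPA1B, r was 0.85 in tumors with the index as a covariate (permutation adjusted p = 0.0288), 0.75 in day 16 nodes (0.101) and 0.62 in day 23 nodes (0.272), so that the call was lost in nodes of both days.

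The genes outside the 8 whose deviations were most like those of each member, by mean r over the tissues, included known partners. STIP1, which bridges HSP70 and HSP90, was nearest to HSPH1 (mean r = 0.84 over the 4 sets of libraries) and also near HSPA8 (0.85), to which DNAJA1 (0.86), KRR1 (0.86), AHSA1, an activator of the HSP90 ATPase (0.84), and VDAC2 (0.83) were also near. HSPH1 had TADA1 (0.77), IPO7 (0.75), ZC3H8 (0.72) and CCT8, a TRiC subunit (0.71). HSP90AA1 had TMPO, CTPS1, DTL, TCP1 and CDCA7 (0.86 to 0.88), and HSPD1 had IPO5, an importin (0.87), NDC1, GARS, GFM1, a mitochondrial elongation factor, and PSMD1 (0.82 to 0.85). HSPE1 had RPA3, NHP2, TOMM5, SNRPD1 and HINT1 (0.78 to 0.82). DNAJB1 had REV1, GINS3, USP32, PIGA and DCUN1D1 (0.77 to 0.78). The nearest to HSPA1A, over the 3 kinds of tissue where it was measurable, were RHOB (0.86), CLSTN3 (0.85), HSPB1, a small heat shock protein (0.83), CD14 (0.82) and RHOU (0.82). HSPA1B had SLC27A1 (0.76), CD14 (0.76), FZD7, AMIGO1 and RHOB (0.75 each). These are descriptions over the same libraries and carry no test.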

How the data were processed

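Expression was measured by stranded polyadenylated RNA sequencing in 72 libraries (source: the labels). The tools bcl2fastq 2.20, STAR and RSEM 1.3.0 and the build mm10 are named per the submitters' processing notes; their settings are not given in the sources used here. The deposited values are log2(TPM + 1), taken as such from the deposited scale, rounded to 2 decimals with a lowest value of 0.01; TPM keeps no read numbers, so the depth and the precision it would give are unknown. TPM printed here were computed back from the deposited log2 values.

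The 8 members and all lists were chosen with earlier results of these data known. Genes above 0.01 in at least 3 libraries were fitted with limma 3.58.1 (R 4.3.3; trend, robust), with Benjamini-Hochberg adjustment over all genes tested and a threshold of 0.05. Tissues were compared over 54 day 23 libraries and days over 36 node libraries, and arms, components and slopes within each set of 18, with batch in tumors. Errors after ± are standard errors. Same-mouse samples are named in the labels (18 mice of day 23 gave spleen and node, and 14 of these a tumor), and the mouse was a block in an alternative fit. Correlations used Python 3.11.15 and scipy 1.17.1. Alternatives were quantile normalization, listed TPM rescaled to 1 sum, filters, a pseudocount of 0.1, covariates, batches and leaving out each library. The length index, leaving out both day 16 nodes that stand apart, and the test of differences between correlations were chosen after seeing the data. Fits were tested on simulated data. Named genes are all 8 members, up to 4 per related list of smallest p among those past the threshold, and the 5 nearest genes by mean r; HSF1 and other named list members fall under the second rule. Sequences are from RefSeq, GRCm38.p6.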

Additional observations from a re-analysis of the deposited data

Results flagged for a closer look

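Of 77 differences in correlation between tumors and another set of libraries, tested by permuting the set labels and adjusted over all 77, 15 passed. This test was chosen after seeing the data. It permuted labels freely over the deviations, although 14 mice gave a tumor, a spleen and a node at day 23. The pairing was not used, and the test was not run on simulated data, so its p-values are approximate. Of the 15 that passed, 10 are pairs with HSPE1. For HSPD1 and HSPE1, r was -0.91 in tumors, against 0.39 in spleens, 0.89 in day 16 nodes and 0.82 in day 23 nodes, each with a permutation adjusted p of 0.000154, which rests on the smallest p the resamples can give. For HSP90AA1 and HSPE1, r was -0.88 in tumors, against 0.59 in spleens (permutation adjusted p = 0.000192), 0.77 in day 16 nodes (0.000154) and 0.64 in day 23 nodes (0.000154). For HSPH1 and HSPE1, r was -0.71 in tumors, against 0.86 in day 16 nodes (permutation adjusted p = 0.000192) and 0.57 in day 23 nodes (0.00262). For HSPA8 and HSPE1, r was -0.71 in tumors, against 0.64 in day 16 nodes (permutation adjusted p = 0.00262) and 0.80 in day 23 nodes (0.000192).

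The other 5 are pairs with HSPA1A or HSPA1B, none of which passed on its own in tumors (smallest permutation adjusted p = 0.0939, for HSPA1A and DNAJB1). For HSPA1A and DNAJB1, r was 0.72 in tumors, against -0.49 in day 16 nodes (permutation adjusted p = 0.0456) and -0.28 in day 23 nodes (0.0357). Against day 23 nodes, r in tumors was 0.71 and in nodes -0.46 for HSPA1A and HSPH1 (permutation adjusted p = 0.0357), 0.42 and -0.64 for HSPA1A and HSP90AA1 (0.0399), and 0.67 and -0.31 for HSPA1B and DNAJB1 (0.0456).

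With the length index as a covariate, r for HSPD1 and HSPE1 was -0.03 in tumors, against 0.87 in spleens (permutation adjusted p = 0.00712), 0.92 in day 16 nodes (0.0164) and 0.84 in day 23 nodes (0.0108). For HSP90AA1 and HSPE1 r was then -0.19 in tumors, against 0.84 in spleens (permutation adjusted p = 0.00115), 0.89 in day 16 nodes (0.00192) and 0.81 in day 23 nodes (0.00192). For HSPH1 and HSPE1 it was 0.26 in tumors, against 0.90 in day 16 nodes (permutation adjusted p = 0.0447) and 0.72 in day 23 nodes (0.196), and for HSPA8 and HSPE1 0.09 in tumors, against 0.71 in day 16 nodes (0.119) and 0.86 in day 23 nodes (0.00262). With the same covariate 4 of the 5 differences of HSPA1A and HSPA1B were lost. The permutation adjusted p was 0.427 for HSPA1A and DNAJB1 against day 16 nodes and 0.108 against day 23 nodes, and against day 23 nodes 0.119 both for HSPA1A and HSP90AA1 and for HSPA1B and DNAJB1. For HSPA1A and HSPH1, r was 0.72 in tumors, against -0.20 in day 23 nodes (permutation adjusted p = 0.0288). For HSPD1 and HSPE1, both day 16 nodes that stand apart were also left out, without the covariate. Their r was -0.91 in tumors, against 0.24 in day 16 nodes (permutation adjusted p = 0.00014). Among the 4 fresh-frozen tumors, the one group large enough and small enough for Dixon's test, none of the 8 members had a value far from the others.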

How the results depend on the processing

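All 8 members passed between tumors and nodes and between tumors and spleens when any 1 library was left out, and between spleens and nodes 5 to 6 did. HSPA1A was at the lowest value in all 18 spleens and entered the fits with spleens only through tumors and nodes. No conclusion is drawn from its calls against spleens. With the mouse as a replicate block the counts were 8, 8 and 6 members, HSPA1A being added between spleens and nodes. Within batch 2 each arm had 1 tumor, so only the sizes of the differences between tumors and nodes are given above. With rescaled TPM, DNAJB1 between tumors and spleens was -0.10 and HSPA8 between spleens and nodes 0.025, and HSPD1 between spleens and nodes was 0.26 with quantile normalization and 0.36 with rescaled TPM; the sign turned with the scaling. In PD1/CYTO spleens 0 members passed with quantile normalization, rescaled TPM, no filter, or integrity or volume as a covariate. When a library was left out 0 to 4 passed, with 4 without the spleen of PD1/CYTO mouse 40 (31.7% of genes). With only the 6 libraries of both groups, 1 member passed in PD1 tumors, where 6.75% of genes did, and 3 in TS/CYTO spleens, where 29.8% did. For the integrity slope in spleens 1 member passed without arm as a term (6.09% of genes) and 1 with the length index (47.8%). When a library was left out 0 to 1 passed, with 1 without the spleen of CYTO mouse 20 (10.2% of genes). For storage 1 member passed with integrity as a covariate (37.5% of genes). When a library was left out 0 to 2 passed, with 2 without the tumor of TS/PD1/CYTO mouse 59 (39.8% of genes). For volume in tumors 0 passed without a batch term, in batch 3 alone or with arm as a term. When a tumor was left out 0 to 3 passed, with 3 without that of PD1/CYTO mouse 38 (42.6% of genes). For volume in spleens 1 passed with quantile normalization (18.8% of genes). When a spleen was left out 0 to 3 passed, with 3 without that of PD1/CYTO mouse 40 (65.9% of genes). With the length index 2 pairs passed in tumors, 4 in spleens and 5 in day 16 nodes, where 2 passed without both nodes that stand apart; without the 2 libraries farthest from the median, 1, 0, 2 and 1 pairs passed in tumors, spleens, day 16 nodes and day 23 nodes. HSP90AA1 and HSPD1 in tumors came to r = -0.40 with the length index. Unless said, the cause was not tested. Depth is unknown, and low levels such as those of HSPA1A are limited by it.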
